A study of Homo sapiens with 6 samples.

Results

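Matrix metalloproteinases are zinc-dependent enzymes that cut collagens and other proteins outside the cell, and TIMPs are the secreted inhibitors that bind their active site. Most are made as inactive precursors and are switched on outside the cell by other proteases, among them plasmin and, for some, another metalloproteinase. In carcinomas they are studied for their part in the breakdown of basement membrane and stroma. The genes described here were taken by name from the deposited expression table. They are the collagenases MMP1 and MMP13, the gelatinases MMP2 and MMP9, the stromelysins MMP3 and MMP10, the membrane-bound MMP14, and the inhibitors TIMP1, TIMP2 and TIMP3, which makes 10 of the 58735 named genes of the table. All 10 were found, and 7 of them had enough counts to be tested.

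The cells were 8505C, an established cell line grown from a human anaplastic thyroid carcinoma. RNA-seq libraries were made of 3 samples with a short hairpin RNA against HHEX and 3 with a control hairpin. The HHEX protein is a homeobox transcription factor of the developing thyroid. The genotype label reads HHEX KD for the first group and wild-type for the second, while the sample titles name a hairpin in both, and both are labelled untreated. The table names the libraries KD1 to KD3 and control1 to control3, which gives the group but not which titled sample a library is. The submitters call them biological replicates of the line, but 2 of the 3 titles in a group begin their replicate number alike, and no source states separate cultures. The p-values therefore cover only the spread among the libraries at hand, which may be partly technical.

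The targeted gene HHEX lay at 14.8, 7.94 and 7.13 CPM (the count scaled to a common library total, here corrected for composition) in KD1 to KD3, against 12.7, 12.8 and 12 CPM in control1 to control3. KD2 and KD3 thus stood at 63.6% and 57.1% of the control mean and KD1 at 118%, which goes against its label. By the quasi-likelihood test of edgeR, HHEX had a log2 fold change of −0.33 (SE 0.28) with a Benjamini-Hochberg adjusted p = 0.527. Directions given for the libraries labelled HHEX shRNA include KD1. Across genes KD1 and KD2 correlated at r = 0.989 with each other, at 0.955 and 0.956 with KD3, and at 0.954 to 0.962 with the controls, while KD3 correlated at 0.971 to 0.977 with the controls. KD3 thus stood nearer to the controls than to the other libraries of its label. Total counts over named genes were 13333245 to 15144176 a library. Of the markers checked, the 6 epithelial ones summed to 1317 to 2146 CPM in the HHEX shRNA libraries and 1184 to 1560 CPM in the controls. The keratins KRT8, KRT18 and KRT7 were abundant, although KRT19, EPCAM and CDH1 had 0 to 35 counts. Thyroglobulin (TG) and the iodide transporter SLC5A5 were at 0 to 1 count in each library, while the thyroid transcription factor NKX2-1 lay at 18 to 38.0 CPM in the HHEX shRNA libraries and 26.8 to 50.5 CPM in the controls. The 8 fibroblast markers summed to 2.5 to 2.68 CPM in the HHEX shRNA libraries and 2.13 to 3.07 CPM in the controls, and the 8 leukocyte markers to 4.37 to 5.00 and 3.74 to 5.32 CPM, with LYZ and MPO at 0 in every library. The 6 endothelial markers summed to 5.15 to 15 CPM in the HHEX shRNA libraries and 15 to 16.4 CPM in the controls, and KD3 was the low library, with CDH5 at 2.61 CPM. The part of such differences in the results below was not tested.

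The zinc-binding site that the MMP members share is shown first. The 33 bases below code for the zinc-binding motif of the metzincin proteases, 11 codons long, in the 7 MMP members, each within 1 exon of the coding sequence (GENCODE 29 transcripts, GRCh38). Capitals mark the codons of the histidines that hold the zinc ion.
MMP1: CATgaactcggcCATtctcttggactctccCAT
MMP3: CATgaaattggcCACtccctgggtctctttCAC
MMP10: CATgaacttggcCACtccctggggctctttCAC
MMP13: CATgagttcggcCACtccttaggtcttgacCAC
MMP2: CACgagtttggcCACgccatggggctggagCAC
MMP9: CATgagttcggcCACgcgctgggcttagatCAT
MMP14: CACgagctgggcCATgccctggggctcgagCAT
The motif was found in 7 of 7 MMP members, in 0 of 3 TIMPs and in 55 of all 19684 protein-coding genes searched. It lies at chr11:102840535-102840567 in MMP3 and at chr11:102776718-102776750 in MMP10, both on the minus strand.

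MMP3 and MMP10 are the closest pair among the members, which bears on how far their counts can be told apart. Their coding sequences were identical at 85.0% of aligned bases, and the longest run without a difference was 96 bases. It lies at chr11:102842434-102842529 in MMP3 and at chr11:102779216-102779311 in MMP10 (GRCh38, minus strand), and is printed once since both genes hold it.
Shared by MMP3 and MMP10: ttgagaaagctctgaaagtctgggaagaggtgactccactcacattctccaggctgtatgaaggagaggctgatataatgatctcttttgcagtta
A read that falls inside this run fits both genes. Between the coding sequences of any other pair of the MMP members or of the TIMP members, the longest shared run was 23 bases, in MMP2 and MMP9. Untranslated parts of exons and genes outside the members were not compared. How the authors' counting treated reads that fit more than 1 place is not stated in the sources used here.

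Levels were compared between genes per length, as CPM per kilobase of exon (exons of all GENCODE 29 transcripts of a gene merged). MMP1, the interstitial collagenase that cuts fibrillar collagens, was far above the rest, at 1986, 1841 and 2877 CPM per kb in KD1 to KD3, against 2703, 2886 and 2221 CPM per kb in control1 to control3. On this scale it ranked between the 7th and the 10th of all named genes in each library. TIMP1, a broad inhibitor, came next, at 124 ± 12.1 CPM per kb in the HHEX shRNA libraries and 129 ± 19.2 CPM per kb in the controls (SD, n = 3 each). TIMP2, an inhibitor that also takes part in the activation of MMP2 at the cell surface, lay at 31.8 ± 4.38 CPM per kb in the HHEX shRNA libraries and 40.6 ± 2.69 CPM per kb in the controls.

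Below these, the order of the genes differed between the groups. In the HHEX shRNA libraries MMP3 lay above MMP2 and TIMP3, at 14.1 ± 4.33 CPM per kb against 3.71 ± 0.537 for MMP2 and 2.81 ± 0.371 for TIMP3, and the values of MMP2 and TIMP3 overlapped. In the controls TIMP3 was at 3.95 ± 0.237, MMP3 at 3.12 ± 0.837 and MMP2 at 2.89 ± 0.373 CPM per kb. There the values of MMP3 overlapped with those of TIMP3 and of MMP2, while TIMP3 and MMP2 did not overlap with each other. MMP10 followed at 0.374 ± 0.17 CPM per kb in the HHEX shRNA libraries and 0.861 ± 0.421 CPM per kb in the controls. MMP14, MMP9 and MMP13 lay between 0 and 0.175 CPM per kb in every library, and their ranges overlapped.

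**Figure D1:**
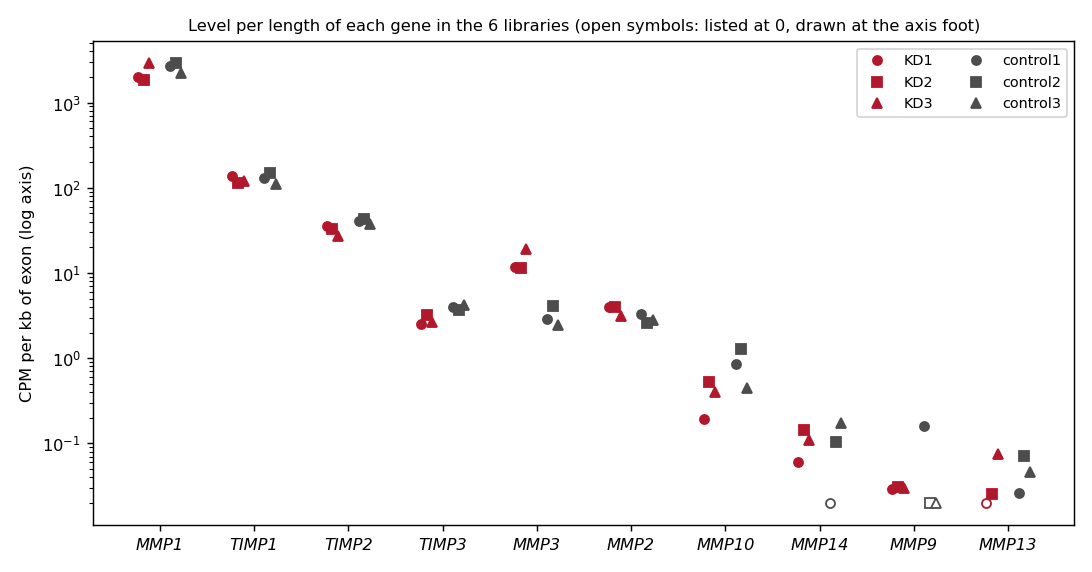
CPM per kilobase of exon (log axis) of the 10 genes, ordered by their control mean, with 1 symbol per library, red for HHEX shRNA and grey for control shRNA. MMP1 lies at 1841 CPM per kb or more in every library, and the red symbols of MMP3 (11.5 to 19.1 CPM per kb) stand clear above its grey ones (2.45 to 4.06 CPM per kb).

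MMP1 made up 99.1% to 99.2% of the summed level per length of the 7 MMP members in the HHEX shRNA libraries. In each control it made up 99.7%. The ratio of that sum to the sum of the 3 TIMP members was 11.4, 12.4 and 19.2 in KD1 to KD3. In control1 to control3 it was 15.5, 14.9 and 14.7. The controls lay between KD2 and KD3 in this ratio, which is set by MMP1. Without MMP1 the other MMP members summed to 16.1, 16.2 and 22.8 CPM per kb in KD1 to KD3. In control1 to control3 they summed to 7.2, 8.11 and 5.89 CPM per kb. These sums did not overlap between the groups, and MMP3 and MMP2 made up most of them. MMP3 alone gave 11.8, 11.5 and 19.1 CPM per kb of them in KD1 to KD3. MMP genes outside the members and TIMP4 were not in any of these sums. Among those left out, MMP16 had more CPM than MMP3 in every library. The ratio of MMP1 to MMP3 per length was 168, 161 and 150 in KD1 to KD3, against 948, 711 and 906 in control1 to control3.

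Differences between the groups were tested on counts over all 14280 genes that passed the low-count filter, of which 26 passed, or 0.182% (0.105% higher and 0.0770% lower in the HHEX shRNA libraries). Of the 10 members, MMP3 passed as higher, 6 were tested and did not pass, and MMP9, MMP13 and MMP14 had too few counts for a test. MMP3 is a stromelysin that degrades proteoglycans, laminin and fibronectin and can activate the precursor of MMP1. It lay at 24.2, 23.5 and 39.2 CPM in KD1 to KD3, against 5.84, 8.31 and 5.02 CPM in control1 to control3. In bulk RNA, more cells with the transcript and more transcript per cell cannot be told apart. All HHEX shRNA libraries were above all controls, and KD3 was the highest. The exact 95% Poisson intervals, which cover counting error only since reads carry no molecular identifiers, ran from 21 to 26.2 CPM in the lowest HHEX shRNA library, KD2, and from 6.92 to 9.90 CPM in the highest control, control2.

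MMP3 thus averaged 28.9 ± 8.88 CPM in the HHEX shRNA libraries and 6.39 ± 1.71 CPM in the controls (SD, n = 3 each). The fitted ratio of HHEX shRNA over control was 4.52-fold (95% confidence interval 2.93 to 6.99), or 2.18 ± 0.28 (SE) on the log2 scale, with an edgeR adjusted p = 0.0334. A two-sided exact permutation test gave p = 0.1, the smallest that 3 against 3 libraries allow. By edgeR the adjusted p was 0.0702 without KD1, 0.0657 without KD2, 0.195 without control1, 0.106 without control2 and 0.208 without control3, while it was 2.61e-05 without KD3. The log2 fold change stayed between 1.92 and 2.43 in these fits. Without KD3 the HHEX shRNA side holds only KD1 and KD2, which correlated at r = 0.989. MMP3 (chromosome 11, 102835801 to 102843803, minus strand) shares 32 exonic bases with WTAPP1, a transcribed pseudogene on the opposite strand, which had 33 to 68 counts in a library and a log2 fold change of 0.36 (edgeR adjusted p = 0.602).

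**Figure D2:**
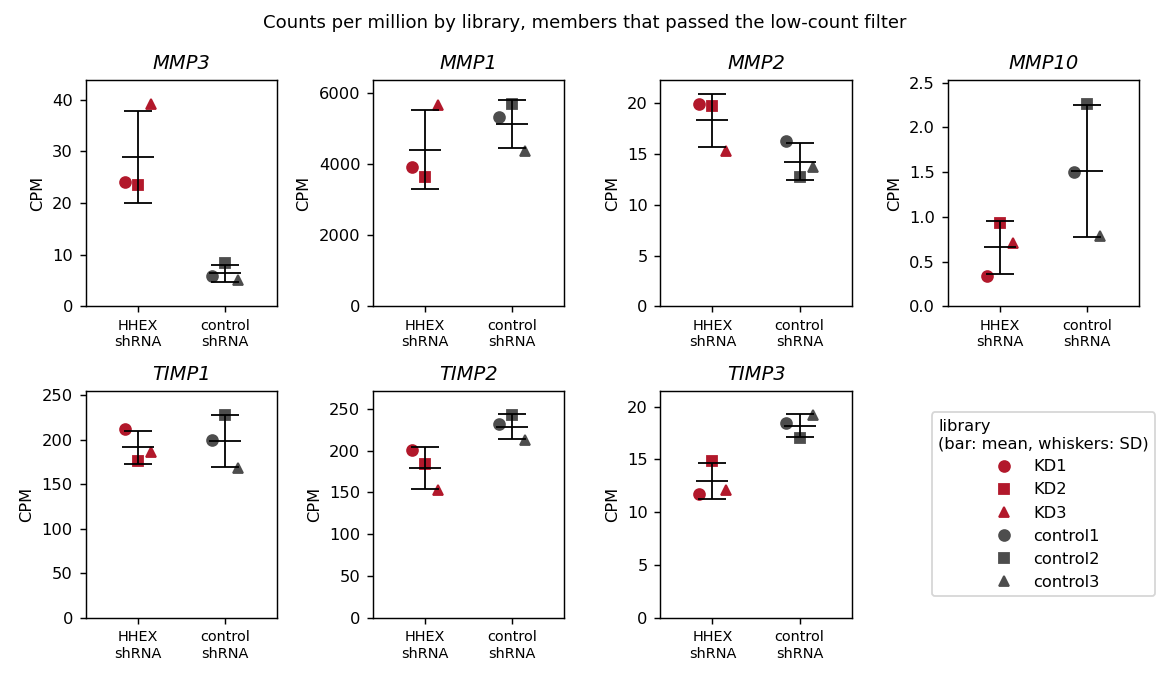
CPM of the 7 members that were tested, 1 panel per gene with its own axis from 0, HHEX shRNA libraries (red) left of control shRNA libraries (grey), with the mean and SD in black. MMP3, TIMP2 and TIMP3 are the panels in which the groups do not overlap.

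MMP10, the other stromelysin, had few reads behind it. It had 5, 13 and 10 counts in KD1 to KD3, against 20, 34 and 12 in control1 to control3, that is 0.338, 0.930 and 0.706 CPM against 1.5, 2.26 and 0.783 CPM in the controls. KD2 lay above control3, so the groups overlapped. The log2 fold change was −1.20 (95% confidence interval −2.46 to 0.07, edgeR adjusted p = 0.260). Since a run of 96 bases is shared with MMP3, whose counts were far higher, part of the MMP10 counts is uncertain.

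MMP1 (chromosome 11, 102789920 to 102798160, minus strand) stood at 3913, 3627 and 5667 CPM in KD1 to KD3, against 5324, 5685 and 4375 CPM in control1 to control3. KD1 and KD2 were below every control, whereas KD3 was above all but control2. The log2 fold change was −0.22 (95% confidence interval −0.75 to 0.31, edgeR adjusted p = 0.608). Without KD3 it became −0.42 with an edgeR adjusted p = 0.0414. That fit rests on KD1 and KD2, which correlated at r = 0.989 and may be partly technical replicates. HHEX was not lower in KD1. The gene took 0.361% to 0.552% of all counts in the HHEX shRNA libraries and 0.457% to 0.565% in the controls. It shares 150 exonic bases with WTAPP1 on the opposite strand.

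MMP2, the gelatinase that cuts type IV collagen of the basement membrane, lay at 19.9, 19.7 and 15.3 CPM in KD1 to KD3, against 16.3, 12.8 and 13.7 CPM in control1 to control3. KD1 and KD2 exceeded every control, and KD3 fell among them. Its log2 fold change was 0.36 (95% confidence interval −0.06 to 0.78, edgeR adjusted p = 0.295), and 0.50 without KD3 (edgeR adjusted p = 0.0359). Without KD3, 4675 of all 14791 genes tested in that fit passed, so the calls of MMP1 and MMP2 came with many others. The HHEX shRNA side of that fit holds only KD1 and KD2, the closest pair of libraries. MMP2 shares 174 exonic bases with AC007336.3 on the same strand, which had 0 counts in each library.

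Of the 3 inhibitors 0 passed edgeR over all genes or DESeq2, which called 6.04% of all tested genes, and 2, TIMP2 and TIMP3, had an unadjusted p under 0.05, as did 20.6% of all tested genes. TIMP3, which stays bound to the matrix and also inhibits ADAM proteases, lay at 11.7, 14.9 and 12.1 CPM in KD1 to KD3, against 18.4, 17 and 19.2 CPM in control1 to control3. All HHEX shRNA libraries were below all controls, with a difference that did not pass (log2 fold change −0.49, SE 0.17, edgeR adjusted p = 0.171). TIMP2 lay at 201, 184 and 153 CPM in KD1 to KD3, against 232, 242 and 212 CPM in control1 to control3, again without overlap. Its log2 fold change was −0.35 (SE 0.14, edgeR adjusted p = 0.210). Groups did not overlap in 24.9% of all tested genes (11.6% with the HHEX shRNA libraries higher and 13.3% lower). Of the 7 tested members 3 had no overlap, MMP3 as higher and TIMP2 and TIMP3 as lower.

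TIMP1 lay at 213, 176 and 187 CPM in KD1 to KD3, against 200, 228 and 168 CPM in control1 to control3. The groups overlapped, with a log2 fold change of −0.05 (95% confidence interval −0.39 to 0.29, edgeR adjusted p = 0.870), whose sign turned when KD2 or control2 was left out. TIMP1 (chromosome X, 47582313 to 47586789) lies inside the span of SYN1, and TIMP3 (chromosome 22, 32801701 to 32863043) inside the span of SYN3, both on the opposite strand to their host. They share 0 exonic bases with these hosts, which had at most 4 counts in a library. TIMP2 (chromosome 17, 78852977 to 78925387, minus strand) shares 198 exonic bases with CEP295NL on the same strand, which had 0 to 6 counts. It also shares 367 with AC022966.1 on the opposite strand, which had 0 counts in each library.

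**Figure D3:**
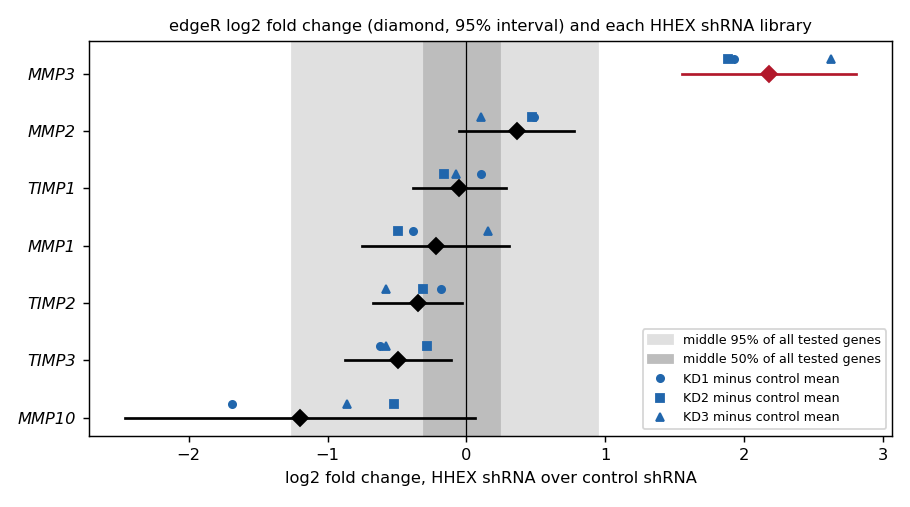
edgeR log2 fold change of HHEX shRNA over control shRNA for the 7 tested members (diamonds with 95% intervals, red where the adjusted p is under 0.05), with the log2 difference of each HHEX shRNA library from the control mean in blue. Grey bands hold the middle 50% and 95% of all tested genes, and MMP3 at 2.18 is the member outside the wider band, which ends at 0.95.

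Each HHEX shRNA library was also set against the mean of the 3 controls. The log2 difference of MMP3 was 1.93, 1.89 and 2.62 in KD1 to KD3, while each control differed from the mean of the other 2 by −0.46 to 0.61. It was the member past 2-fold in all 3 libraries, and MMP10 was past it in KD1, at −1.69. Over all tested genes 12.4% were past 2-fold in KD1 (3.94% higher, 8.49% lower), 12.7% in KD2 (4.27% higher, 8.46% lower) and 5.55% in KD3 (1.92% higher, 3.63% lower). For a control against the other controls the share was 3.06% to 3.09%, and MMP10 in control3, at −1.10, was the member past 2-fold there. TIMP3 was at −0.62, −0.29 and −0.58 in KD1 to KD3, and TIMP2 at −0.18, −0.31 and −0.58. MMP1 was at −0.38, −0.49 and 0.15, and MMP2 at 0.49, 0.47 and 0.10. With 1 library on one side these differences have no replicate check.

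MMP14, MMP9 and MMP13 were near the limit of detection, where a floor of 3 counts corresponds to 0.196 to 0.225 CPM. MMP14, a membrane-bound collagenase that activates MMP2, had 4, 9 and 7 counts in KD1 to KD3, against 0, 7 and 12 in control1 to control3. MMP9, a gelatinase of inflammatory cells and many tumours, had 1 count in each HHEX shRNA library, against 5, 0 and 0 in the controls. MMP13, a collagenase of cartilage and bone, had 0, 1 and 3 counts in KD1 to KD3, against 1, 3 and 2 in the controls. No difference between the groups was detectable for these genes at this depth. A low count in the table need not mean a low transcript level. FTH1 and EIF4A1, which cells use widely and which were chosen after their values were seen, were listed at 34 to 116 and 28 to 64 counts, and the cause was not tested. MMP9 shares 430 exonic bases with SLC12A5-AS1 on the opposite strand, which had 0 to 4 counts in a library. MMP14 overlaps no other annotated gene or unnamed locus of the table.

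MMP10, MMP1, MMP3 and MMP13 lie in 1 cluster of MMP genes on chromosome 11, which the choice of members by name did not use. The cluster held 9 MMP genes over 435 kb, all on the minus strand (GRCh38), and their levels differed widely across it. MMP8, an enzyme of neutrophils, and MMP27 had 0 counts in every library, and MMP7 and MMP20 had 2 counts in KD2 and 0 elsewhere. MMP12, an elastase of macrophages and the next MMP gene beyond MMP3, had 12, 12 and 4 counts in KD1 to KD3, against 7, 1 and 7 in control1 to control3. It did not pass the filter. Between MMP10 and MMP3, MMP1 was the most abundant gene of the cluster. Of the 9, only MMP10, MMP1 and MMP3 passed the low-count filter and were tested. MMP3 was called, and MMP1 and MMP10 had negative log2 fold changes that did not pass.

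**Figure D4:**
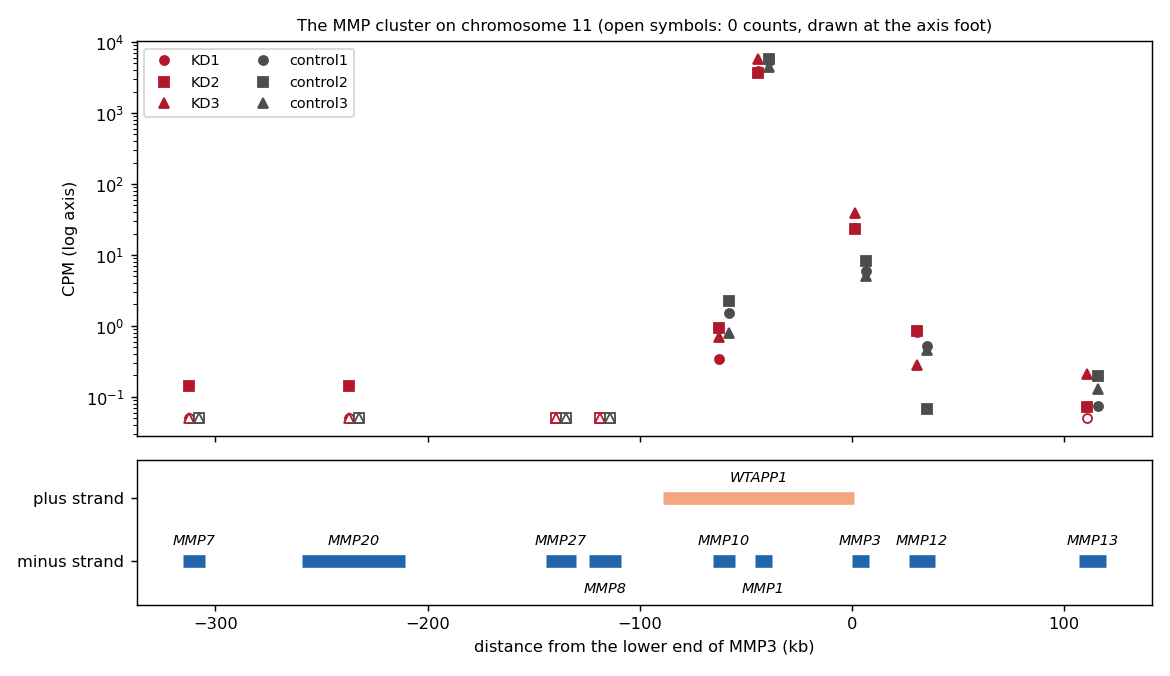
CPM (log axis) of the 9 MMP genes of the chromosome 11 cluster in the 6 libraries (red HHEX shRNA, drawn slightly left, grey control shRNA), above a map of the genes in kb from the lower end of MMP3. The values range from 0 counts in MMP8 and MMP27 to 3627 CPM and above in MMP1, and MMP3 is the gene whose groups stand apart.

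Promoter entries of RefSeq (GRCh38.p14) were available for 4 members, MMP10, MMP14, TIMP1 and TIMP3. The 250 bases before the RefSeq start were searched on both strands. The patterns were TGAGTNA, a form of the AP-1 motif, the TATA motif TATAAA and the GC box GGGCGG. No promoter is shown for MMP1, MMP2, MMP3, MMP9, MMP13 and TIMP2. A TATA motif and an AP-1 motif mark many inducible MMP and TIMP genes, so the 2 windows that hold one are shown, for MMP10 at chr11:102780629-102780878 (minus strand) and for TIMP1 at chrX:47582186-47582435 (plus strand). The RefSeq starts of TIMP1, TIMP3 and MMP14 lie inside the spans that the table gives these genes, so their windows reach into those spans. Capitals mark the motifs.
MMP10: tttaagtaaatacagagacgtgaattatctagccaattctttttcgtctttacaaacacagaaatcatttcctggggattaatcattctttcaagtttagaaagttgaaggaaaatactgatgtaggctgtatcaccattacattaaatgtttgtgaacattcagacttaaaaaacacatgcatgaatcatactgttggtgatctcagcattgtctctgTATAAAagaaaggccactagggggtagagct
TIMP1: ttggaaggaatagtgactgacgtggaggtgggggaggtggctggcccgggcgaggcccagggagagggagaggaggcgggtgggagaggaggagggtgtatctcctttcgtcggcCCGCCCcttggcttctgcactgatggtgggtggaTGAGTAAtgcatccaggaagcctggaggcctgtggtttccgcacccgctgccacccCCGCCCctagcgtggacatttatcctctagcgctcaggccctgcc
MMP10 holds TATAAA at position −31 from the RefSeq start and neither of the other patterns as written. Other forms of the motifs were not searched, so their absence cannot be read from this. TIMP1 holds TGAGTNA at −101 and the GC box 2 times, at −135 and −45. MMP14 holds the GC box once and TIMP3 5 times. Of 35116 promoters, 10.8% hold TGAGTNA, 10.7% TATAAA and 42.6% GGGCGG. GC content was 34.4% in the MMP10 window, 56.8% in MMP14, 64.8% in TIMP1 and 72.4% in TIMP3. These matches describe the sequence. Of the 4 genes, MMP10, TIMP1 and TIMP3 were tested and did not pass, and MMP14 was not tested.

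Related genes were described by lists, each set beside all tested genes, whose median log2 fold change was −0.01. Among the other MMPs and TIMP4, 7 of 17 were tested and 0 passed by edgeR, while 3 had an unadjusted p under 0.05 and DESeq2 called 2. Over all tested genes these shares were 20.6% and 6.04%. The list median was −0.13, and that of the 7 tested members −0.22. MMP16, a membrane-bound relative of MMP14, came closest, at 69.3, 87.2 and 66.2 CPM in KD1 to KD3, against 41.1, 39.2 and 37.0 CPM in control1 to control3 (log2 fold change 0.93, SE 0.14, edgeR adjusted p = 0.0511). MMP11, a protease of tumour stroma, lay at 2.30 ± 0.349 CPM in the HHEX shRNA libraries and 5.12 ± 0.496 CPM in the controls (log2 fold change −1.15, edgeR adjusted p = 0.105). MMP17, anchored to the membrane by a lipid, had −1.08 (edgeR adjusted p = 0.187). Across the 14 tested genes of the whole family, MMP3 was the one that passed.

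Genes that switch MMPs on or hold them back were listed next, and 15 of 18 were tested. SERPINB2, an inhibitor of the plasminogen activators, passed, with 20.1, 18.6 and 23.2 CPM in KD1 to KD3, against 3.97, 5.25 and 6.26 CPM in control1 to control3 (log2 fold change 1.99, SE 0.22, edgeR adjusted p = 0.0188). The list median was 0.36. In 11 of the 15 the log2 fold change was positive, against 6946 of all 14280 tested genes. An unadjusted edgeR p under 0.05 was found for 7 and DESeq2 called 3, against 20.6% and 6.04% of all tested genes. PLAU, the urokinase that forms plasmin, had 0.03 (edgeR adjusted p = 0.956) and RECK, a membrane-anchored MMP inhibitor, 0.30 (edgeR adjusted p = 0.312), both chosen after their values were seen.

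Of the ADAM and ADAMTS proteases, some of which TIMP3 can inhibit, 15 of 21 were tested and 0 passed by edgeR. In this list 7 had an unadjusted edgeR p under 0.05 and DESeq2 called 5, against 20.6% and 6.04% of all tested genes. The median log2 fold change was 0.24. ADAMTS9, which cleaves proteoglycans, lay at 13.1 ± 4.18 CPM in the HHEX shRNA libraries and 3.89 ± 0.487 CPM in the controls (log2 fold change 1.75, edgeR adjusted p = 0.0584). ADAMTS6 and ADAMTS1 had 0.77 and 1.02 (edgeR adjusted p = 0.0768 and 0.0817). These 3 had every HHEX shRNA library above every control, as did 5 of the 15, against 11.6% of all tested genes in that direction.

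Among AP-1, ETS and RUNX2 transcription factors, which bind promoters of MMP genes, 13 of 13 were tested and 0 passed by edgeR, while 7 had an unadjusted p under 0.05 and DESeq2 called 3, against 20.6% and 6.04% of all tested genes. The median log2 fold change was 0.37. FOSL1, a subunit of AP-1, stood at 416, 395 and 278 CPM in KD1 to KD3, against 166, 169 and 124 CPM in control1 to control3 (log2 fold change 1.25, edgeR adjusted p = 0.0517). FOSL2, another subunit, had a log2 fold change of 0.56 and the ETS factor ETV1 0.67 (edgeR adjusted p = 0.0968 and 0.153). JUND, also of AP-1 and chosen after its values were seen, had −1.19 (edgeR adjusted p = 0.155). It lay at 4.52, 3.22 and 6.21 CPM in KD1 to KD3, against 6.96, 16.8 and 8.09 CPM in control1 to control3. Of the 13 genes 11 had a positive log2 fold change, against 6946 of all 14280 tested genes. FOS, also of AP-1 and chosen after its values were seen, was high in KD3, at 6.95, 5.94 and 176 CPM in KD1 to KD3, against 3.44, 5.85 and 5.41 CPM in control1 to control3. KD3 was also the library with the highest MMP3, and the part of FOS in the MMP3 level was not tested.

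Of ligands that induce MMPs in other cells 12 of 15 were tested and 0 passed by edgeR, while 5 had an unadjusted p under 0.05 and DESeq2 called 4, against 20.6% and 6.04% of all tested genes (list median −0.05). LIF, a cytokine, lay at 10.4 ± 0.336 CPM in the HHEX shRNA libraries and 4.90 ± 0.890 CPM in the controls (log2 fold change 1.08, edgeR adjusted p = 0.0817). IL1B, an inflammatory cytokine, had a log2 fold change of 0.53 and HBEGF, a ligand of the EGF receptor, 0.89 (edgeR adjusted p = 0.123 and 0.155). These 3 are higher, but of the 12 tested ligands 4 had a positive and 8 a negative log2 fold change. Of matrix proteins that MMPs can cut, 12 of 15 were tested and 0 passed by edgeR, while 1 had an unadjusted p under 0.05 and DESeq2 called 1, beside the same shares of all tested genes (list median 0.12). LAMA5, a laminin chain of basement membrane, lay at 477 ± 87.5 CPM in the HHEX shRNA libraries and 1120 ± 121 CPM in the controls (log2 fold change −1.23, edgeR adjusted p = 0.0511). COL4A1, a type IV collagen chain, had a log2 fold change of 0.40 (edgeR adjusted p = 0.286).

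**Figure D5:**
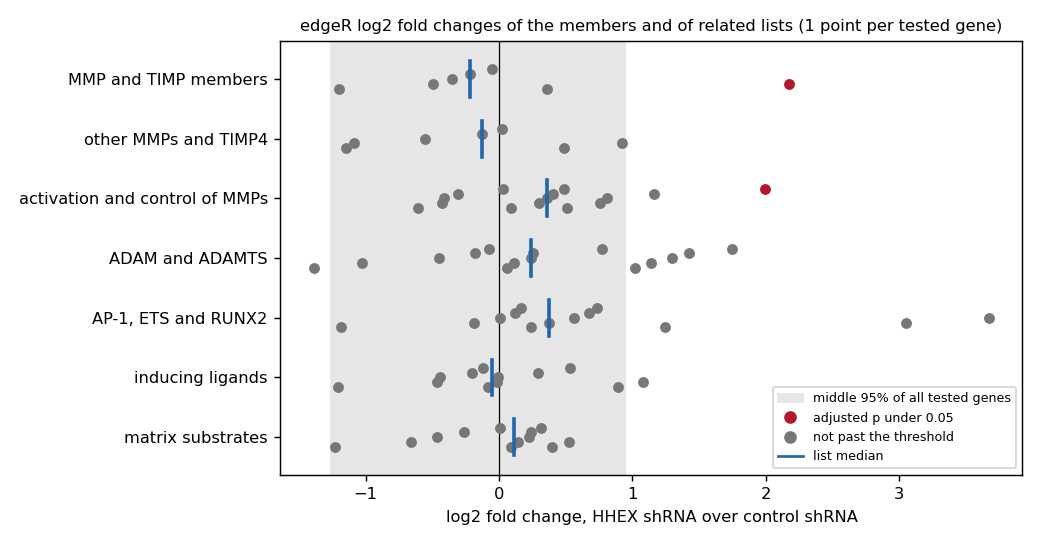
edgeR log2 fold changes of HHEX shRNA over control shRNA, 1 point per tested gene, for the members and 6 related lists, with list medians as blue bars and the middle 95% of all tested genes as a grey band. MMP3 and SERPINB2 are the points past an adjusted p of 0.05, and the list medians lie between −0.22 and 0.37.

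The genes whose pattern over the 6 libraries was most like that of MMP3 were found by the root mean square difference of centred log2 CPM, over 10677 genes with a mean of at least 5 CPM. The nearest were GCLM, which encodes the modifier subunit of glutamate-cysteine ligase, at 0.344, SERPINB2 at 0.349, CXCL8, a chemokine of neutrophils, at 0.360, RGS2, a regulator of G protein signalling, at 0.374, and INHBA, a subunit of activin A, at 0.404. GCLM lay at 52.3, 53.2 and 148 CPM in KD1 to KD3, against 13.3, 17.2 and 17.4 CPM in control1 to control3, so that KD3 was the highest library as for MMP3. CXCL8 lay at 76.4, 79.1 and 99.4 CPM in KD1 to KD3, against 29.5, 38.7 and 24.4 CPM in control1 to control3. Among the controls control2 was highest and control3 lowest, as for MMP3. The same libraries underlie all 5 patterns, and likeness over 6 libraries is a description of them.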

How the data were processed

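The series holds RNA-seq of 6 libraries of 8505C cells. Trizol extraction and TIANSeq mRNA capture and library kits are named in the protocols per the labels. The sources used here give no aligner, counter, strand setting or genome build. The authors deposited 1 table with raw counts per gene. It also holds 6 further columns of per-sample values, which were not used. Columns could be tied to a group but not to a titled sample. Start and end of 58683 of 58735 named genes equal those of GENCODE 29 (GRCh38). A further 998 rows name no gene, took 0.239% to 0.298% of counts and stayed out.

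The count model was edgeR 4.0.16 (R 4.3.3) with filterByExpr by group, TMM scaling, robust glmQLFit, glmQLFTest without covariates, and Benjamini-Hochberg adjustment over 14280 genes with a threshold of 0.05. CPM used the TMM factors, levels per length the merged GENCODE 29 exons, and log2 differences a prior count of 2. A standard error is the log2 fold change divided by the square root of F. Single genes were also tested by an exact permutation test over libraries. The fit was tested on simulated data. Coding sequences were compared with Biopython 1.88.

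Members and lists were chosen with earlier results of these data known. Named genes are all members, list genes past the threshold or otherwise up to 3 of each list with the smallest p and at least 5 CPM in either group, the chromosome 11 cluster, and the 5 genes nearest to MMP3. RECK, PLAU, FOS, JUND, FTH1, EIF4A1, NKX2-1 and CDH5 were named outside this rule after their values were seen. A few listed genes are not reported here. Alternatives were other scalings and filters, DESeq2 1.42.0, a non-robust fit, a replicate block, other prior counts and leaving out each library.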

Additional observations from a re-analysis of the deposited data

How the results depend on the processing

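Over all tested genes, 26 passed by edgeR, 15 higher and 11 lower in the HHEX shRNA libraries. Upper-quartile scaling gave 15 higher and 20 lower, and no scaling 15 higher and 22 lower. Without the low-count filter 1359 passed, and DESeq2 called 862. Leaving out each library in turn gave 0 to 4675 genes, the highest without KD3, where 14791 genes were tested. Without control1 1 gene passed, and 0 passed without KD1, KD2, control2 or control3. In the fits other than that without KD3, 1625 to 2428 genes had an unadjusted edgeR p under 0.05. The number of members called was 0 to 3 when 1 library was left out, with MMP1 and MMP2 beside MMP3 without KD3. It was 1, MMP3, under each of the other alternatives. MMP3 had a positive log2 fold change under all 14 alternatives (1.92 to 2.43, adjusted p 4.37e-18 to 0.208), and did not pass in 5 of them, each without 1 library. TIMP1 was −0.05 with all libraries and −0.16 to 0.0761 when 1 was left out, positive without KD2 (0.01) and without control2 (0.0761). TIMP2, TIMP3, MMP1 and MMP2 kept their sign under all 14, and MMP10 under the 13 that tested it, all but the filter at 1 CPM. The number of members past 2-fold in KD3 was 1 to 2 when a control was left out, MMP10 being added without control3, and the counts in KD1 and KD2 did not move.

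With the number in the column name as a replicate block, 30 genes and 1 member, MMP3, passed, with a log2 fold change of 2.16 for MMP3. Deviations of same-numbered libraries correlated at −0.0469, −0.0693 and 0.123, and the column numbers could not be tied to the sample titles, so the libraries share only a number. Counts of 0 to 12 a library limit MMP9, MMP13 and MMP14, and no difference smaller than their intervals could be seen.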
